A study of Mus musculus with 12 samples.

Results

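The genes described here are the SR proteins of the Srsf series and the hnRNP genes, chosen by symbol: Srsf followed by a number, or any symbol that begins with Hnrnp. They number 32 of the 25239 genes in the count table, with 11 SR and 21 hnRNP genes. The libraries came from brain and liver of wild-type male C57BL6/J mice aged 24 months. Heat stress mice were held at 40 ± 0.5 °C and 60 ± 5% relative humidity, 3 h each day over 15 days, and the other mice were labelled Control. Each tissue gave 3 control and 3 heat stress libraries, 12 in all, and whether a brain and a liver library with the same number came from one mouse is not stated. The comparisons ask which of these genes differ with heat in each tissue, whether the heat difference is itself unlike between tissues, and how brain and liver differ.

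SR and hnRNP proteins bind nascent RNA and set which exons and splice sites are used. SR proteins carry an RNA recognition motif and a tail rich in arginine and serine that kinases phosphorylate, and they mostly favour exon inclusion. The hnRNP proteins coat the transcript, often oppose SR proteins at shared exons, and also act in mRNA export, stability and translation. Many genes of both families limit their own protein by splicing in exons that send the mRNA to nonsense-mediated decay. In the GENCODE annotation used here, 9 of 11 SR genes and 10 of 21 hnRNP genes have a transcript of that class. The values below count reads per gene, so they do not separate such transcripts from coding ones. In a bulk tissue, fewer cells of a type and less RNA per cell cannot be told apart.

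Total counts per library ran from 10466198 to 15609040. Neuron markers and hepatocyte markers stood in the tissues the labels name: the 6 neuron markers summed to at least 5095 TMM-normalized CPM (counts scaled to library size) in brain against at most 29.1 CPM in liver, and the 7 hepatocyte markers summed to at most 16.7 CPM in brain against at least 77675 CPM in liver. Skeletal muscle markers, 6 in the list, summed to 309 CPM in liver control 1 and 1917 CPM in liver heat stress 2, and to at most 5.99 CPM in the other 4 liver libraries. The lists that separated the liver groups were T and NK cells (4 markers), at 1.36 to 3.10 CPM in control and 4.46 to 8.64 CPM in heat stress, and endothelium (4 markers), at 42.4 to 45.8 CPM and 46.0 to 54.9 CPM, with all markers detected in every liver library. In brain, the 6 choroid plexus markers summed to 1243 to 2472 CPM in control and 258 to 1123 CPM in heat stress, and the 4 endothelium markers to 93.2 to 183 CPM and 61.3 to 77.1 CPM, so both lists separated the groups. The 7 striatal neuron markers summed to 396 to 718 CPM in control and 715 to 1559 CPM in heat stress. All members of these 3 lists were detected in every brain library. The part of these lists in the results of either tissue was not tested.

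The promoters of 4 genes on which the comparisons turn are shown from RefSeq (GRCm38.p6), each running from 250 bases before to 50 after a start site, 5′ to 3′ on the gene's strand. Srsf3 lies at chr17:29032410-29032709 (+ strand), Srsf1 at chr11:88047123-88047422 (+), Hnrnpc at chr14:52103972-52104271 (− strand) and Srsf12 at chr4:33209022-33209321 (+). The first 3 had the smallest p of the liver comparison, and Srsf12 was the gene nearly absent from liver. Capitals mark CCAAT on either strand and, in Srsf3, also TATAAA; in Srsf12 they mark GGGCGG on either strand.
Srsf3: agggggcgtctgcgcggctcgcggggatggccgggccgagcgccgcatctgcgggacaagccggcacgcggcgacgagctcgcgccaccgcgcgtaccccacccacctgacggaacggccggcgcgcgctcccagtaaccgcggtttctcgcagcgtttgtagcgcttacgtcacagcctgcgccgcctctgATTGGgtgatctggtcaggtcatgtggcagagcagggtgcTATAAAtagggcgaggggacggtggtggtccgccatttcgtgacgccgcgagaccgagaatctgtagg
Srsf1: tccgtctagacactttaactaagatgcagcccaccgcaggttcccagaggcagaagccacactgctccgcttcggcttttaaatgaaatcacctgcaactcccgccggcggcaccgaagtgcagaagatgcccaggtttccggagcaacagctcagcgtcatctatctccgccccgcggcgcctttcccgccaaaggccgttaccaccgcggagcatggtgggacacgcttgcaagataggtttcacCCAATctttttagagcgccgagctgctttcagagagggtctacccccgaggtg
Hnrnpc: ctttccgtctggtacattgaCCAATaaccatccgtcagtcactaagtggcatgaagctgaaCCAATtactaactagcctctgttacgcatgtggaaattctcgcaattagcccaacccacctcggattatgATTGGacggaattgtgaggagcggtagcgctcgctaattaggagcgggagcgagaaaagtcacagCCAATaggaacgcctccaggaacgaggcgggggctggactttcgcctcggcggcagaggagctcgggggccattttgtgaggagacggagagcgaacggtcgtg
Srsf12: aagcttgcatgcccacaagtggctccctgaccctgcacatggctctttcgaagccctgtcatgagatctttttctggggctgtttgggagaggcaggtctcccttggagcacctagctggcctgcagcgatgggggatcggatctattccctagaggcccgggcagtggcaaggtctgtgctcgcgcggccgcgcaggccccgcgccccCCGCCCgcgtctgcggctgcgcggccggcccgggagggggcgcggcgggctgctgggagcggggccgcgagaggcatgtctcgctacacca
Promoters were listed for 30 of the 32 genes, 42 in all. CCAAT, on either strand, was in 22 of those 42, and in 37.4% of all 32851 promoters of this length. GGGCGG was in 34 of 42, against 35.7% of all promoters. TATAAA was in 5 of 42, against 13.6%. GAANNTTC, the core letters of a heat shock element, was in 5 of 42, at Srsf9, Hnrnpa2b1, Hnrnpf and Hnrnpl, against 7.86%. CACGTG was in 5 of 42, against 7.15%, and TGACGTCA in 0 of 42, against 1.79%. These 6 strings were chosen after results were known, and none of them contains another. Such matches describe the letters only.

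Levels per transcript length, on the scale shared by all 12 libraries, put the same 3 genes first in both tissues. Hnrnpa2b1, which acts in splicing and RNA transport, stood at 161 ± 8.80 CPM per kb in brain and 226 ± 37.0 in liver (SD, n = 6 libraries each). Srsf5, an SR protein, came next at 115 ± 15.5 and 184 ± 12.6 CPM per kb. Hnrnpk, a poly(C)-binding protein, followed at 93.7 ± 6.82 and 119 ± 7.18 CPM per kb. The ranges of Hnrnpa2b1 and Srsf5 met in liver and not in brain, and those of Srsf5 and Hnrnpk met in brain and not in liver. All 3 were above every other member by their means. Hnrnpa1, a splicing repressor, stood at 4.70 ± 0.483 and 3.91 ± 0.495 CPM per kb, but 42.2% of the 100-base windows of its transcript also occur in other genes' transcripts (Gm10052 and others), and how reads that match several genes were treated is not stated. The share was 90.2% for Hnrnpa3, 48.9% for Hnrnpf, 28.2% for Hnrnpk, 27.9% for Hnrnpm, 20.7% for Srsf3, 18.9% for Srsf5 and 15.5% for Hnrnph2, and the levels of these genes are uncertain. The processed pseudogene Hnrnpa1l2-ps2 had 0 to 2 counts in every library and entered none of the main edgeR tests. It entered only settings without that count filter, such as DESeq2. Srsf12 passed the count filter in brain and in the fit over all libraries, not in liver, so 31, 30 and 31 genes were tested in brain, in liver and over both.

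In brain, no SR or hnRNP gene passed an adjusted p of 0.05 with heat stress by edgeR's quasi-likelihood test (0 of 31, with 0% of all 14806 genes tested). The level of Srsf3, the smallest SR protein and a regulator of exon choice and mRNA export, was 132, 154 and 145 CPM in the control libraries and 195, 198 and 174 CPM in the heat stress libraries. The groups did not overlap, and the log2 difference was 0.40 (SE 0.11, unadjusted p = 0.00672, adjusted p = 0.170). DESeq2 on the same libraries gave Srsf3 an adjusted p of 0.0425 and called 4.68% of genes, while DESeq2 fitted over all 12 libraries gave it 0.374 and called 0.0637% of genes.

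At an unadjusted p under 0.05, 3 members were above control (9.68% of those tested, against 10% of all genes) and 1 was below (3.23%, against 10%). Hnrnpdl, a paralogue of Hnrnpd with a similar RNA-binding role, was at 214, 185 and 197 CPM in control and 239.9, 251 and 263 CPM in heat stress. Its log2 difference was 0.34 (SE 0.11, unadjusted p = 0.0157, adjusted p = 0.180). Srsf7, an SR protein with a zinc knuckle, was at 108, 111 and 122 CPM in control and 129, 142 and 134 CPM in heat stress. The heat stress libraries of Hnrnpdl and Srsf7 lay above every control library. The log2 difference of Srsf7 was 0.25 (SE 0.10, unadjusted p = 0.0418, adjusted p = 0.235). Hnrnpm, a splicing regulator of alternative exons, was at 117, 91.4 and 104 CPM in control and 75.4, 79.2 and 91.1 CPM in heat stress. Its groups nearly met, at 91.4 and 91.1 CPM, with a log2 difference of −0.35 (SE 0.13, unadjusted p = 0.0232, adjusted p = 0.199). Exons of Hnrnpm overlap March2 on the same strand over 14.7% of their bases. With length and GC correction the balance turned, to 1 member above and 5 below (0 and 3 with the replicate block added). All genes under that p, in either direction, numbered 2969 in the main fit, 1752 with that correction and 1635 with the block added. With upper quartile normalization 5 members were above (all genes 2957). On all 12 libraries none was below, with edgeR (all genes 1445) or DESeq2 (1694). Without control 2, or without heat stress 3, 1 member was above control in place of 3, while all genes under that p numbered 4027 and 2954. Hnrnpm missed that p in each fit that left out control 1, control 3, heat stress 1 or heat stress 2. In those fits all genes under it numbered 1655, 2175, 2104 and 1665, in the same order.

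The other named genes of this comparison had larger p. Hnrnpll (0.22), Srsf12 (0.27), Hnrnpr (0.21), Srsf10 (0.18) and Hnrnpa3 (0.18) had log2 differences above 0, and Srsf4 (−0.20, and −0.12 without control 1) had one below. Their adjusted p ran from 0.256 for Hnrnpll to 0.347 for Hnrnpa3. All 6 had groups that did not overlap. Over all members, 14 of 31 had non-overlapping groups, against 24.9% of all genes. Heat stress was higher in 10 (all genes 12.9%) and lower in 4 (all genes 12%). An exact permutation test of 3 against 3 cannot give a p below 0.1. Of the SR genes, 10 of 11 had a log2 difference above 0, where 49.7% of all genes did, with a median of 0.14 and Srsf4 as the exception. With length and GC correction, 3 of 11 did, so this direction did not hold under that correction. With RLE or upper quartile normalization or library totals only, 20 of all 31 members were above 0, as in the main fit. The hnRNP genes divided evenly, 10 above and 10 below 0, with a median of −0.02 (all genes: −0.003).

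**Figure D1:**
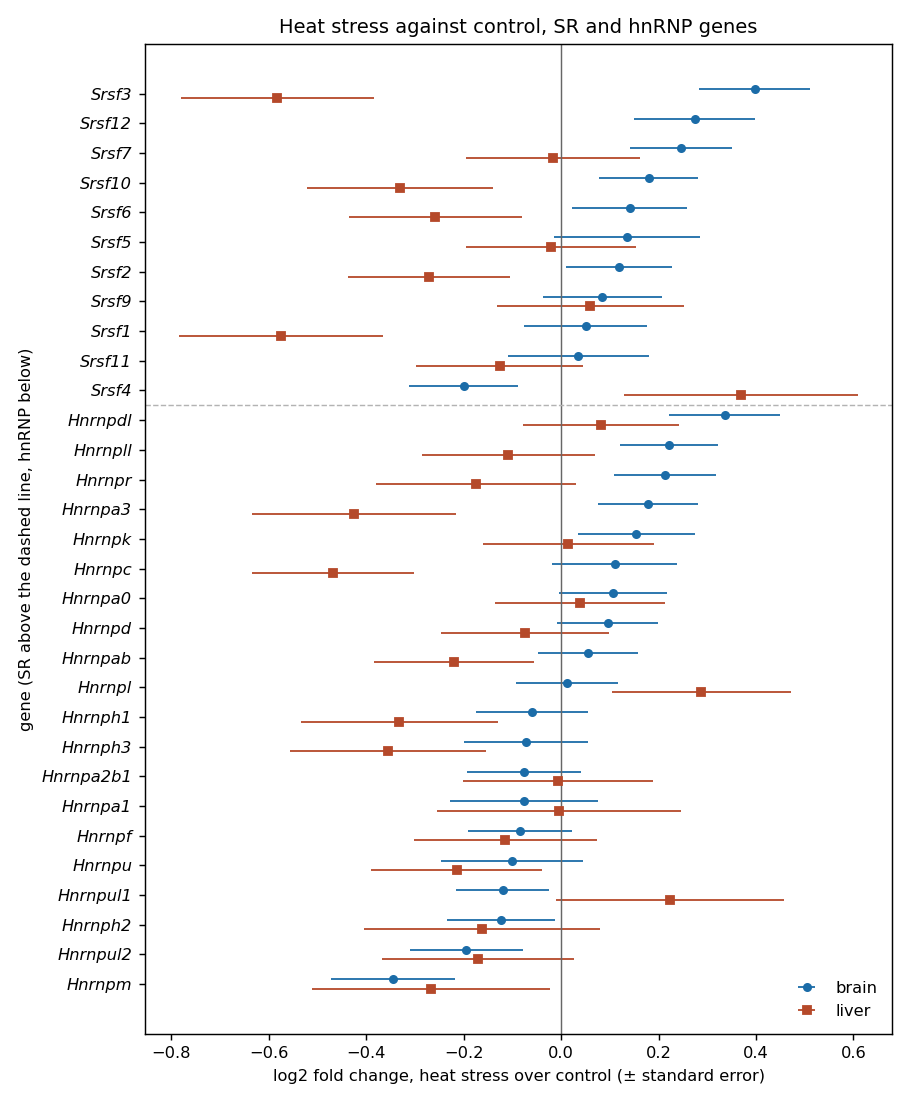
Log2 fold change of heat stress over control for each tested gene, with its standard error, in brain (circles) and liver (squares). Srsf3 has the largest brain difference (0.40) and the largest liver difference of opposite sign (−0.58), and no point passed the adjusted threshold in edgeR.

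In liver, no SR or hnRNP gene passed an adjusted p of 0.05 either (0 of 30, with 0% of all 12296 genes). Srsf3 was at 77.7, 88.6 and 72.3 CPM in control and 66.0, 50 and 43.3 CPM in heat stress, with no overlap. The log2 difference was −0.58 (SE 0.20, unadjusted p = 0.0149, adjusted p = 0.735).

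Srsf1, the founding SR protein, was at 93.3, 119.5 and 129.5 CPM in control and 93.1, 75.0 and 61.6 CPM in heat stress. One control and one heat stress library of Srsf1 nearly met, at 93.3 and 93.1 CPM. Its log2 difference was −0.58 (SE 0.21, unadjusted p = 0.0207, adjusted p = 0.784). Hnrnpc, which binds uridine tracts and sorts transcripts by length for export, was at 98.6, 110.2 and 102 CPM in control and 80.3, 78.7 and 65.8 CPM in heat stress. Every heat stress library of Hnrnpc was below every control library, with a log2 difference of −0.47 (SE 0.17, unadjusted p = 0.0187, adjusted p = 0.779). DESeq2 over all 12 libraries gave adjusted p = 0.0418 for Srsf3 and 0.0410 for Hnrnpc (1.12% of genes called), while a DESeq2 fit limited to liver (0.56% of genes called) gave 0.330 and 0.283. These 3 genes were the ones under an unadjusted p of 0.05, all lower (10% of those tested, against 2.87% of all genes), and none was higher (against 2.97%). This count was 0 without heat stress 3, 1 without control 2, 6 without control 1 and 5 without both libraries that hold muscle transcripts. All genes under that p, in either direction, numbered 718 in the main fit. In the fits just given they numbered 420, 414, 1614 and 1274, in the same order. The count of lower members was 1 with the replicate block and 5 with the column suffix as covariate. On all 12 libraries it was 5 with edgeR and 8 with DESeq2. All genes under that p numbered 321, 1046, 1388 and 1564 in those fits, in the same order. With DESeq2 on all 12 libraries, without control 1 and without heat stress 1, 1 member was higher (all genes 760 in the last).

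**Figure D2:**
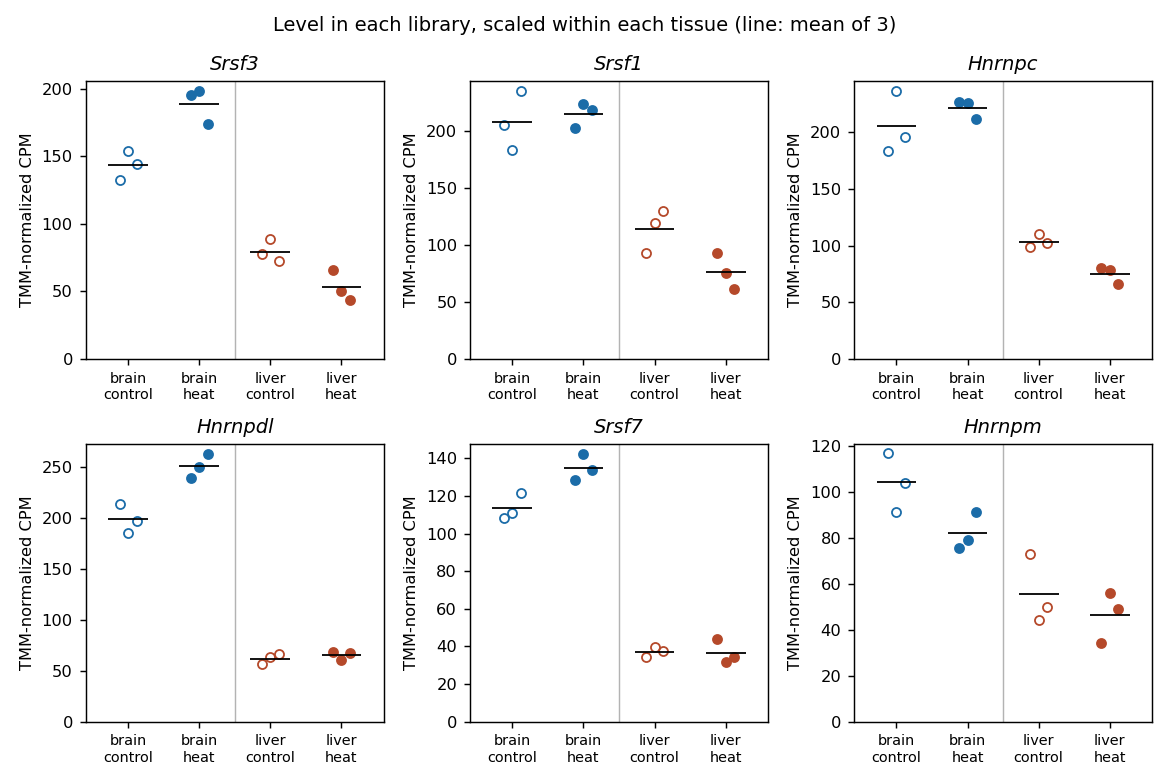
TMM-normalized CPM of 6 genes in each library, scaled within each tissue, so heights are compared within a tissue only. Open circles are control, filled circles heat stress, lines the means of 3, and the Srsf3 heat stress circles lie above control in brain and below it in liver.

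The remaining named genes were Hnrnpa3 (−0.42), Hnrnph3 (−0.36), Srsf10 (−0.33), Hnrnph1 (−0.33) and Srsf2 (−0.27) with log2 differences below 0, and Srsf4 (0.37) and Hnrnpl (0.29) above, at adjusted p of 0.887 to 0.934. Single libraries moved several of these by over 1.5 times. Without control 3, Hnrnph1 was at −0.11 and Hnrnph3 at −0.17, without heat stress 2 Srsf10 was at −0.21, and without heat stress 3 Srsf4 was at 0.13 and Hnrnpl at 0.10, while Srsf4 was at 0.58 without heat stress 1. Srsf2, a regulator of exon inclusion, ranged from 96.5 to 113 CPM in control and from 79.5 to 95 CPM in heat stress. Hnrnpl, which binds CA repeats, ranged from 75.0 to 79.7 CPM in control and from 81.8 to 116 CPM in heat stress. Groups did not overlap for 6 of 30 members, against 11.1% of all genes. They were lower in 5 (all genes 5.73%) and higher in 1 (all genes 5.38%). The log2 difference was below 0 for 23 of 30 members (76.7%, against 48.2%), 8 of 10 SR and 15 of 20 hnRNP genes, with a median of −0.14 (all genes: 0.01). Summed over the 11 SR genes, the level was 719, 799 and 813 CPM in control and 686, 643 and 685 CPM in heat stress, so the sums did not overlap. The sums over the 21 hnRNP genes did, at 1662, 1525 and 1651 CPM in control and 1429, 1589 and 1486 CPM in heat stress, as did those of the SR genes in brain, at 1272, 1149 and 1340 CPM and 1307, 1415 and 1435 CPM.

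Left out together, the 2 liver libraries with muscle transcripts changed the Srsf3 difference from −0.58 to −0.57, that of Srsf1 from −0.58 to −0.70 and that of Hnrnpc from −0.47 to −0.55. The liver columns carried the suffix 2nd for control 2, heat stress 1 and heat stress 3. Among those 3 libraries the log2 ratio was −0.70 for Srsf3, −0.63 for Srsf1 and −0.59 for Hnrnpc, and among the other 3 it was −0.59, −0.57 and −0.35.

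Base composition and transcript length moved with the heat values over all genes. By length in 4 equal bins, the median log2 difference of all genes ran from 0.19 in the shortest to −0.16 in the longest in brain, and from 0.04 to −0.02 in liver, and the shortest bin held 4 members in each tissue. In brain, 21 of 31 members fell in the lowest of 4 equal bins of genes by GC content (at most 45.9%), where the median log2 difference of all genes was 0.15. In liver, 20 of 30 fell in that bin (at most 45.7%), where it was −0.11. The medians of the members in that bin were 0.11 in brain and −0.17 in liver, with 19 of 20 below 0 in liver. The 10 members outside it had medians of 0.03 in brain and 0.05 in liver, and in each tissue 6 of those 10 were above 0. The correction takes out length and GC content together, and their parts were not separated. After it, the median of all members went from 0.08 to −0.06 in brain and from −0.14 to −0.05 in liver. Srsf3 went from 0.40 to 0.09 in brain and from −0.58 to −0.44 in liver, Srsf1 from −0.58 to −0.41 and Hnrnpc from −0.47 to −0.35 in liver. In brain, Srsf7 (−0.09), Srsf10 (−0.01) and Hnrnpa3 (−0.10) changed sign, among 11 of 31 members that did (7 SR and 4 hnRNP), while Hnrnpdl was at 0.26 and Hnrnpm at −0.27. Members above 0 went from 20 to 11 of 31 in brain and from 7 to 10 of 30 in liver.

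**Figure D3:**
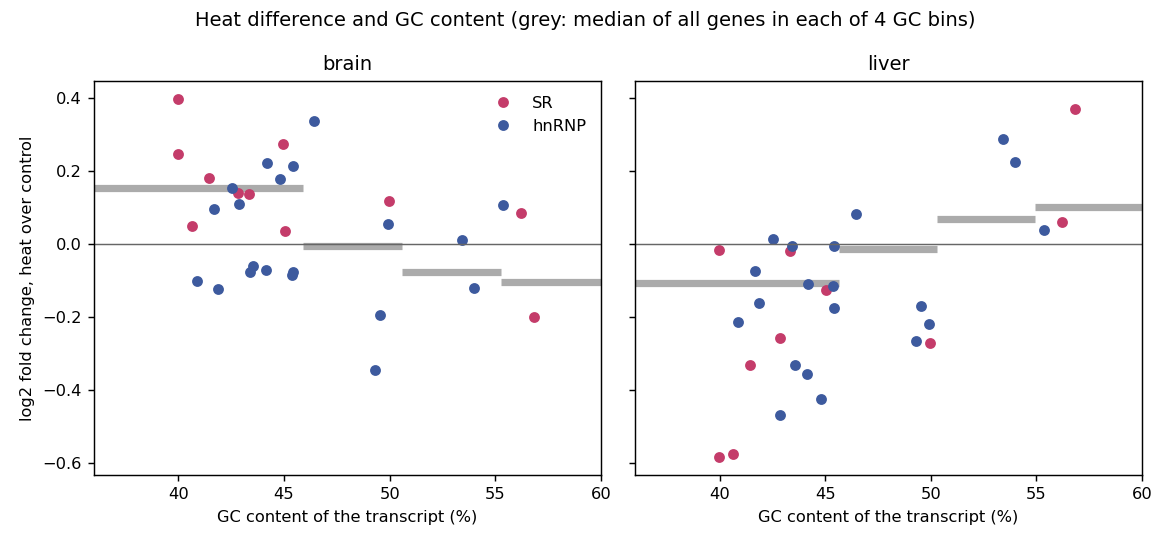
Log2 fold change of heat stress over control against the GC content of each gene's transcript, in brain and liver, with SR genes in red and hnRNP genes in blue. Grey bars are the median of all genes in each of 4 GC bins: the lowest bin is at 0.15 in brain and −0.11 in liver, and holds 21 and 20 of the members.

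Tested as a difference, the heat effect in liver minus that in brain passed for no member in edgeR (0 of 31, with 0.00632% of all genes called), and 5 members were below 0 at an unadjusted p under 0.05 (16.1%, against 5.91%). Srsf3 came first, with a difference of −0.99 (SE 0.23, unadjusted p = 9.13e-04, adjusted p = 0.436), and DESeq2 gave an adjusted p of 0.0176 (0.369% of genes called). It was also the sole member whose groups separated in opposite directions in the 2 tissues, 1 of 30 against 1.04% of all genes. Hnrnpc (−0.59), Hnrnpa3 (−0.60) and Srsf10 (−0.52) followed, each with an adjusted p of 0.516, and Srsf1 (−0.63) was the fifth under 0.05. After length and GC correction the difference for Srsf3 was −0.61 (adjusted p = 0.596).

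How many of these genes differed between brain and liver rested on the scaling. Counts here are over the 30 members that passed the filter in each tissue, since Srsf12 entered through brain alone. With TMM, an adjusted p under 0.05 with a log2 difference beyond 1 was met by 3 of 30, against 53% of the 11322 genes that passed in each tissue, with 1 higher in brain (all such genes 23.2%) and 2 higher in liver (29.8%). With library totals only, 19 members met it, and with length and GC correction 10, all of them higher in brain, so that Hnrnpf and Hnrnpab no longer passed the fold threshold under either. Over all 15824 genes tested, not limited to those that passed in each tissue, 10226 met it with TMM, 5902 of them higher in brain. With library totals only 11367 did (8937 higher in brain), and with length and GC correction 10459 (6100). Srsf12, an SR protein that counteracts SR activity, had 1525 counts over the 6 brain libraries and 5 over the 6 liver libraries. Relative to library sizes adjusted by TMM that is a ratio of 158 (95% Clopper-Pearson interval 67.4 to 486, counting error only), and relative to plain library totals 339.7 (145 to 1048). Its fitted log2 difference, 7.20 with all libraries, was 9.07 without liver control 1 and 8.76 without liver heat stress 2, so its size rests on the few liver counts. The liver counts were 3 in control 1 and 2 in heat stress 2, the libraries with muscle markers, and 0 in the other 4, where the limit that 0 counts allow is 3 counts a library. The same 2 libraries had the most counts of the 5 oligodendrocyte markers in liver, 409 and 85 against 36 to 51, and were the ones with all 6 neuron markers detected. The part of these transcripts in the Srsf12 counts was not tested.

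Hnrnpr, which is abundant in neurons and carries mRNA in axons, was at 55.8 to 70.9 CPM in brain and 20.4 to 37.9 CPM in liver on the 12-library scale. The ranges did not meet, and the log2 difference was 1.24 (SE 0.14, adjusted p = 8.83e-07). Hnrnpf and Hnrnpab were higher in liver. Hnrnpf, which binds G tracts, was at 22.3 to 26.5 CPM in brain and 65.0 to 108 CPM in liver, a log2 difference of −1.65 (SE 0.13, adjusted p = 2.15e-08). Hnrnpab, which binds AU-rich RNA, was at 75.0 to 84.4 CPM in brain and 175 to 252 CPM in liver, a log2 difference of −1.37 (SE 0.10, adjusted p = 1.01e-08). Neither gene's ranges overlapped. Exon bases lie opposite other genes over 29.1% for Hnrnpab (Phykpl) and 26.5% for Hnrnpf, and also over 43.02% for Srsf4 and 25.3% for Srsf2, and strand was not stated in the counting.

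By adjusted p alone, 18 of the 30 members differed (82.1% of genes that passed in each tissue), 9 higher in brain (37%) and 9 higher in liver (45.2%). Besides those above, Hnrnpd (0.98), Hnrnph2 (0.87), Hnrnpul2 (0.83), Hnrnpdl (0.71), Srsf7 (0.65), Hnrnph1 (0.63), Hnrnph3 (0.63) and Hnrnpa0 (0.47) were higher in brain. Srsf2 (−0.87), Srsf5 (−0.67), Srsf6 (−0.65), Hnrnpa2b1 (−0.49), Srsf4 (−0.42), Hnrnpk (−0.35) and Srsf9 (−0.34) were higher in liver. Those last 7 turned to higher in brain when libraries were scaled by totals alone, which moved the median of all genes from 0.24 to 1.34. With length and GC correction, 5 of the 9 higher in liver turned, and Hnrnpd and Hnrnpul2 turned among those higher in brain. The other genes higher in brain, with Hnrnpf and Hnrnpab, kept their direction under both. Srsf12 is not counted among them. It passed the filter through brain alone, and with 1525 counts there and 5 in liver neither scaling could turn it. Without liver control 1, Hnrnpd (1.05) and Hnrnph2 (1.02) also passed the fold threshold, and Hnrnpd (1.04) did without liver heat stress 2. As a share of all counts, which is scaling by library totals, the members took 0.425 to 0.500% in brain and 0.202 to 0.253% in liver. On the TMM scale of all 12 libraries their sums overlapped, at 3027 to 3404 CPM in brain and 3036 to 3801 CPM in liver. Which tissue had more of these transcripts thus rested on the scaling.

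**Figure D4:**
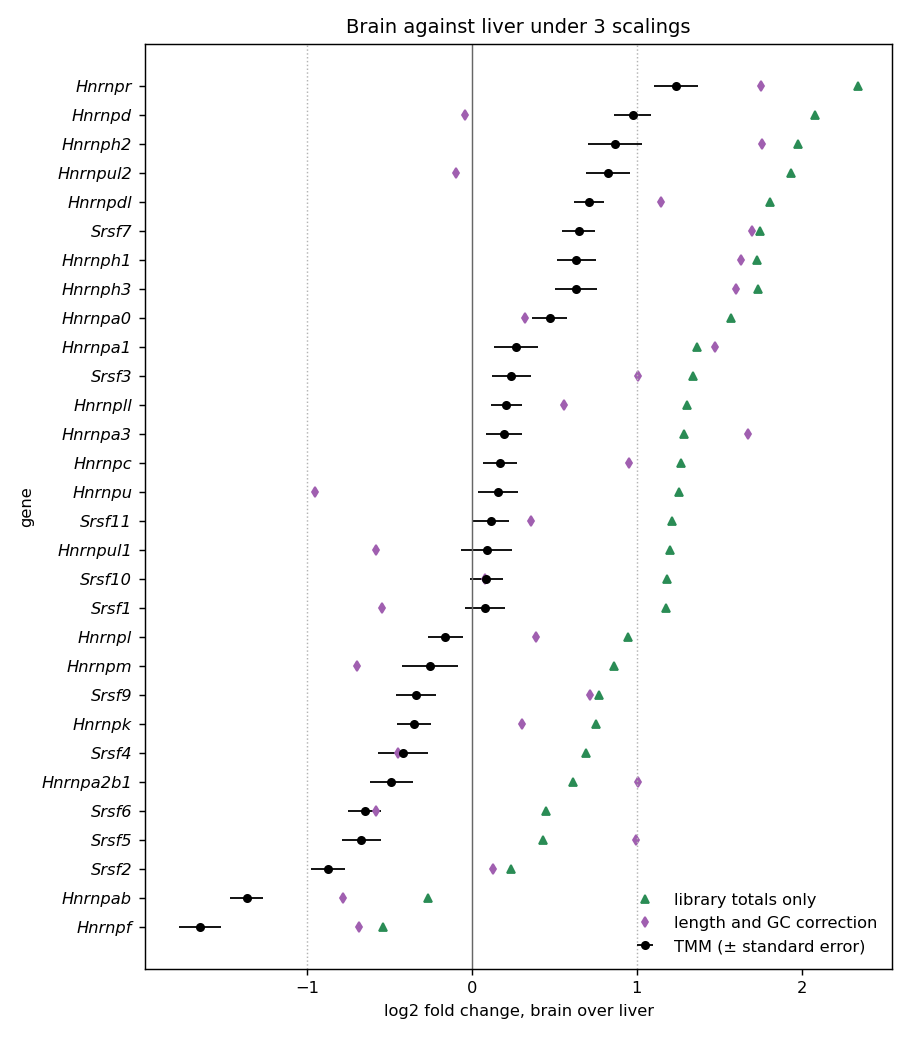
Log2 fold change of brain over liver for 30 genes (Srsf12, at 7.20, is left out) under TMM with its standard error, library totals only, and length and GC correction. Dotted lines mark the fold threshold; Hnrnpf and Hnrnpab stay below 0 under all 3 scalings, and library totals move every gene to the right.

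Other splicing genes give the setting. These lists were read at the same unadjusted p, which 10% of all genes passed in each direction in brain and 2.97% and 2.87% in liver. Of the SR protein kinases and phosphatase regulators, 0 of 12 passed in brain and 0 of 11 in liver, with median log2 differences of 0.01 and 0.02. In brain, Ppp1r8, a nuclear phosphatase subunit, was at 0.23 and Prpf4b, a spliceosomal kinase, at −0.26 (−0.38 to −0.13 with 1 library left out). In liver, Tnpo3, which imports SR proteins, was at −0.25 and Clk2, an SR kinase, at 0.35 (log2). Of 16 SR-related proteins, 2 were above and 1 below control in brain and 1 was below in liver (medians −0.05 and −0.05). Tra2b, an exon-inclusion factor, was at 0.34 and Thrap3 at −0.40 in brain, and Pnn at −0.48 and Luc7l3 at −0.37 in liver.

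Of 15 hnRNP proteins with other symbols, 1 was above and 2 below in brain and 2 below in liver (medians 0.003 and −0.10). Matr3, a nuclear matrix protein, was at 0.41 and Ptbp1, a splicing repressor, at −0.33 in brain. Tardbp, which represses cryptic exons, was at 84.7, 105 and 99.1 CPM in liver control and 73.0, 70.5 and 66.3 CPM in liver heat stress. Its groups did not overlap (−0.46, edgeR adjusted p = 0.779, DESeq2 on the 6 liver libraries 0.321, and over 12 libraries, where 1.12% of genes were called, 0.00658), and Syncrip was at −0.41. Of the tissue-restricted regulators, 2 of 22 were above and 2 below in brain (median 0.04), with Ptbp2 at 0.33 and Mbnl1 at 0.33, and 1 of 14 was above in liver (median −0.20), Srrm4 at 0.74, with Khdrbs3 at −0.29. Srrm4 was at 0.41 without liver heat stress 2, and Khdrbs3 at −0.14 without liver control 2.

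Of the core spliceosome, 9 of 33 were above and 6 below control in brain, and 0 of 32 in liver (medians 0.02 and 0.002). Snrpb2, a U2 protein, was at 24.3, 31.6 and 28.7 CPM in brain control and 42.7, 55.4 and 40.7 CPM in heat stress. Prpf8, the scaffold of the spliceosome's active site, was at 251, 169 and 176 CPM in control and 118, 108 and 128 CPM in heat stress. Both had separate groups (0.72 and −0.75, edgeR adjusted p = 0.170, DESeq2 on the 6 brain libraries 0.0144 and 0.00864, with 4.68% of genes called, and over 12 libraries 0.304 and 0.331, with 0.0637% called). In liver, Snrpd3 was at −0.35 and Snrpd1 at −0.35. With 1 library left out, Snrpd3 ran from −0.52 to −0.20 and Snrpd1 from −0.61 to −0.16.

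Between tissues, over the genes that passed the filter in each tissue (of which 53% met the fold threshold), it was met by 2 of 11 kinases and regulators, 2 of 16 SR-related, 5 of 15 other hnRNP, 4 of 32 core and 10 of 12 tissue-restricted genes. Of the genes named next, Elavl3, Srpk3 and Snrpn did not pass in liver and Esrp2 did not pass in brain. Elavl3, a neuronal RNA-binding protein, was at 161 to 191 CPM in brain and at most 1.13 CPM in liver. Esrp2, an epithelial splicing factor, was at most 0.167 CPM in brain and 42.9 to 93.4 CPM in liver. Srpk2, an SR kinase, differed by 2.68, Srpk3 by 3.78, Matr3 by 2.10, Rnps1 by 1.59, Luc7l3 by 1.20 and Snrpn by 5.54 toward brain, and Ptbp3 by −2.06 and Snrpe by −1.42 toward liver (log2). Snrpe was at −0.33 (adjusted p = 0.202) with library totals only and turned to 0.90 with length and GC correction, and Ptbp3 was at −0.96 with library totals only.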

How the data were processed

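RNA from frozen brain and liver was sequenced as oligo-dT, stranded libraries. The authors deposited raw counts per gene symbol. Per the submitters' processing notes, reads were trimmed with Trimmomatic 0.39, aligned to mm10 with HISAT2 2.2.1 and counted with featureCounts (Subread 2.0.1). The study's methods also describe a Tophat2 and HTSeq workflow, and which of them made the deposited counts is not stated. The strand setting, the annotation release and the treatment of reads with several alignments are not given in the sources used here, and separate tables of the authors' own comparisons (fold changes and p-values) were not used.

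Here edgeR 4.0.16 (R 4.3.3) was used with TMM scaling, filterByExpr (minimum count 10, minimum total 15) and the robust quasi-likelihood test, with Benjamini-Hochberg adjustment over all genes tested. Each heat comparison used the 6 libraries of its tissue, and brain against liver and the difference of heat effects used all 12. DESeq2 1.42.0, other scalings and filters, a replicate block, each library left out and a per-library length and GC correction (mgcv 1.9.3, GENCODE gene models for 96.5% of symbols) were alternatives. The fits were tested on simulated data, the outcome of which is not reported here. Named genes were the 10 members with the smallest p in each heat comparison, the 4 with the smallest p for the difference of heat effects, up to 8 called members each way between tissues, and the 2 leading genes of each related list. Other genes named were chosen after their values were seen. The members and lists were chosen with earlier results of these data known. The study's methods give 3 mice per group, which matches 3 brain and 3 liver libraries per group, but not which libraries share a mouse, so the tissues may not be independent in the tests that cross them. The labels do not say more about the animals, and the p-values set a difference against the spread between these libraries. Replicate pairs differed by more than sampling noise.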

Additional observations from a re-analysis of the deposited data

Results flagged for a closer look

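The heat effect on Srsf3 in liver minus that in brain was −0.99 on the log2 scale (SE 0.23, edgeR adjusted p = 0.436), with every heat stress library above control in brain and below it in liver. With 1 library left out in turn it ranged from −1.17 to −0.86. With length and GC correction it was −0.61 (adjusted p = 0.596), and the brain part went from 0.40 to 0.09.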

How the results depend on the processing

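Counts of members called with heat stayed at 0 in both tissues, and for the difference of heat effects, under every edgeR alternative run. On the libraries that edgeR was run on, DESeq2 called 1 in brain and 1 for the difference (each Srsf3), with 4.68% and 0.369% of all genes. On all 12 libraries it called 2 in liver, with 1.12% of all genes. Between tissues, 4 members were called (with Srsf12, which passed the filter through brain alone), 20 with library totals only (20 higher in brain, 0 in liver) and 11 with length and GC correction (11 and 0), both with Srsf12. Of all 15824 genes, 5902 were called higher in brain and 4324 in liver in the main fit. These counts were 8937 and 2430 with library totals only, and 6100 and 4359 with that correction. A stricter filter left Srsf12 out and called 4 of 30 members higher in brain (Hnrnpd, Hnrnph2, Hnrnpr and Hnrnpul2), with 2860 of all 10970 genes. The members' median log2 difference in brain (0.08) was −0.0631 with length and GC correction and −0.0617 with the replicate block added (all genes −0.0203 in each). In liver (−0.14) it was −0.1882 with DESeq2 on 6 libraries, −0.1949 with edgeR on 12, −0.1771 with DESeq2 on 12, −0.1798 with no filter (over the 30 members tested with edgeR on the 6 liver libraries −0.1658, −0.1703, −0.1521 and −0.1575, the rest of the shift coming from members that these settings added), −0.0468 with length and GC correction, −0.0311 with the replicate block added, −0.1024 with the suffix as covariate and −0.1695 without both muscle libraries. In those liver fits the median of all genes ran from −0.0117 to 0.0317. Between tissues the members' median (0.16) was 1.2585, 0.3566 and 0.3858 with library totals, the stricter filter and length and GC correction, and −0.0411 and 0.2588 in control and heat stress libraries alone. The medians of all genes in those fits were 1.3431, 0.0268, 0.311, 0.2023 and 0.1299, in the same order (main fit 0.242). For the difference of heat effects the members' median (−0.19, all genes −0.0413) was −0.029 with length and GC correction (all genes −0.0229). That correction turned 11 of 31 members in brain, of the named genes Srsf7 (−0.0917, with block −0.0889), Srsf10 (−0.0063, −0.0061) and Hnrnpa3 (−0.0986, −0.0923), and Snrpe (0.9042) between tissues. The cause was not tested.

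With 1 library left out the members' median ran from 0.0379 (without heat stress 3) to 0.0934 in brain, −0.1832 (without heat stress 2) to −0.0872 (without control 1) in liver, 0.0501 (without brain control 1) to 0.169 between tissues and −0.2568 to −0.1233 for the difference of heat effects, and members called higher in brain from 2 to 4 (without liver control 1). Between tissues the median of all genes ran from 0.1763 (without brain control 1) to 0.2914 (without liver control 1). All genes called higher in brain numbered 5879 and 6153 of 15824 in those fits, in the same order. Same-numbered control and heat stress libraries correlated at −0.29, 0.19 and −0.20 in brain and −0.58, −0.51 and −0.09 in liver, brain and liver libraries at 0.20, 0.16 and 0.08 (control) and 0.03, −0.10 and 0.01 (heat stress), and no shared animal is stated for a number. Each control brain library correlated best with the liver library of its own number, and the heat stress libraries did not all do so. The values were centred within each group of 3 libraries, so these correlations depend on each other. Shared animals cannot be read from them. With the replicate block 0, 0 and 4 members were called in brain, in liver and between tissues, and the medians were 0.0775, −0.1392 and 0.1554. Of all genes, 0 of 14806, 1 of 12296 and 10198 of 15824 were called in those fits, with medians of −0.0035, 0.0198 and 0.2609. Depth limits Srsf12 in liver.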
